A study of Homo sapiens with 18 samples.

Results

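NF-kB is a family of transcription factors built as dimers from 5 subunits: RELA, REL and RELB, which carry activation domains, and NFKB1 and NFKB2, which are made as precursors and cut to the shorter subunits p50 and p52. In resting cells inhibitor proteins hold the dimers in the cytoplasm, and receptors such as TLR5, which binds bacterial flagellin and signals through MyD88, lead to the breakdown of the inhibitors. Several inhibitors are themselves targets of NF-kB, so that a response also raises the genes that end it. The 10 genes described here are those 5 subunits and 5 inhibitors or cofactors: NFKBIA (IkB-alpha) and NFKBIE (IkB-epsilon), which retain dimers in the cytoplasm; NFKBIZ (IkB-zeta) and BCL3, nuclear members of the IkB family that act with p50 or p52 dimers on chosen genes; and TNFAIP3 (A20), a ubiquitin-editing enzyme that damps the signal upstream.

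Each gene was taken from the deposited value table as the one transcript cluster (the array's unit for a gene) whose platform annotation gave that symbol alone; none of the 10 had a second one. All 10 passed the filter on dim probes, and they stand among 16111 genes tested. Values are log2 intensities, in which 1 unit is a doubling, and a level is comparable between arrays for one gene but not between genes.

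The 18 arrays (Affymetrix Human Gene 2.1 ST) held total RNA of HEK293, a line of human embryonic kidney origin made to overexpress TLR5 of the mouse. All were grown in SILAC medium with heavy, medium or light amino acids, and which array had which amino acids the sources used here do not give. Cells received a mock control, purified flagellin of the probiotic Escherichia coli Nissle (EcN) or purified flagellin of Salmonella Typhimurium SL1344 (ST), in an amount set by a multiplicity of infection of 10. They were taken at 60 or 120 min. Each of the 6 groups had 3 arrays labelled as biological replicates A, B and C. The labels do not say whether these were separate cultures, so p-values measure only the spread between these arrays, which may be technical. For 6 arrays the description names the mock control while title, source and treatment name ST flagellin; the latter were followed. In such bulk RNA a smaller share of responding cells and less RNA per responding cell cannot be told apart.

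There were 5 arrays that did not follow their groups, and most values below are given with them set apart. Whether labels of some arrays were exchanged cannot be told from these files, so each array is named as labelled, and group means and same-letter differences hold only as far as the labels do. The 4 flagellin arrays lettered C and the mock array lettered A at 120 min had high levels of NF-kB genes. For NFKBIA, NFKBIZ and TNFAIP3 the 8 flagellin arrays lettered A and B read near or below the low mock arrays. This did not hold for all members. NFKB1 read 5.62 to 5.83 on those at 120 min, against 5.07 and 5.16 on mock B and C. NFKBIE read 4.89 to 5.37 on those at 60 min, against 4.37 to 4.44 on mock. These 5 arrays were picked on values of these same genes, so their separation is a description and was not tested. ISG15, an interferon-induced gene, did not follow the 5: it read 3.94 on the array labelled mock 120 min A, inside the mock range of 3.17 to 4.28, and 4.22 to 7.08 over the 12 flagellin arrays. EGR1, an immediate early gene, read 9.80 on that array against 10.99 and 10.84 on the other mock arrays at 120 min and 8.81 to 10.01 on the 6 flagellin arrays of that time, so it lay within the flagellin range. On mock 120 min B and C, EGR1 lay within the range of the EcN arrays at 60 min (10.51 to 11.40), above mock at 60 min (8.89 to 9.27). Over all genes, after centring, the array labelled mock 120 min A was most alike to mock 60 min B (r = 0.40). The other mock arrays at 120 min, B and C, were each most alike to EcN 60 min A (r = 0.21 and 0.38). ST 120 min C was most alike to mock 120 min A (r = 0.27). These r values are across genes, which are not independent replicates, and were not tested.

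Array medians ran from 2.27 to 2.32. Of 8 HEK293 markers, 6 were more than 2 log2 units above the array median on every array (PAX2, CDH2, VIM, KRT18, LIN28B and INA), and the mean level of all 8 ran from 6.21 to 6.50 over the 18 arrays and from 6.23 to 6.36 over the 5. Of 7 leukocyte markers, PTPRC, LYZ, CD3E, MS4A1 and ITGAM did not pass the filter. The mean of the other 2 ran from 5.75 to 6.12 over all arrays and from 5.85 to 6.10 over the 5. Of these, CD68 was high on every array (8.89 to 9.46), while CD14 read 2.34 to 2.93. Of 5 fibroblast markers only COL1A1 passed, at 4.36 to 4.99 over all arrays and 4.44 to 4.98 over the 5. It too was more than 2 log2 units above the array median on every array. All 5 intestinal epithelium markers passed, with CDX2, EPCAM and LGR5 high and VIL1 at 2.04 to 2.83. The mean of all 5 markers ran from 5.34 to 5.66 over all arrays and from 5.44 to 5.59 over the 5 arrays. No marker list set the 5 arrays apart. Human TLR5, which is not the murine transgene, read 3.17 to 4.18.

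Promoter sequences were available from RefSeq (GRCh38.p14) for 8 of the 10 genes, as 13 promoters; NFKBIE and RELB had no entry. The 250 bases before each start were searched on both strands for the 10-base kappa-B consensus, the site NF-kB dimers bind, and for GGANNTTCC, a shorter form that overlaps it. The consensus was found in 9.96% of 35116 tabled promoters and GGANNTTCC in 3.84%. The consensus lay in at least 1 promoter of NFKBIA, NFKBIZ, TNFAIP3, NFKB1, NFKB2 and REL, which is 6 of the 8 genes and 8 of the 13 promoters, and GGANNTTCC lay in promoters of the same 6 genes. No match lay in these windows of RELA and BCL3, which says only that the letters are not there. A match is a description of sequence, not evidence of binding. For each of 6 genes whose levels separate the arrays below, 1 promoter that holds a match is shown. It is given 5′ to 3′ on the gene's strand, ending just before the start, with every match to either motif in capitals. Other promoters of NFKB1, NFKB2 and NFKBIZ are not shown, and 1 of NFKB1 and 1 of NFKB2 held no match.
NFKBIA, chr14:35404750-35404999, minus strand: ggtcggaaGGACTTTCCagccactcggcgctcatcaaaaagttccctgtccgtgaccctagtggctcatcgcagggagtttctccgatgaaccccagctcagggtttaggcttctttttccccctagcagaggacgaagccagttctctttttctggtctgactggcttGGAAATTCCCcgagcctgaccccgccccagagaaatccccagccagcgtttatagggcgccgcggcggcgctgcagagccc
TNFAIP3, chr6:137867009-137867258, plus strand: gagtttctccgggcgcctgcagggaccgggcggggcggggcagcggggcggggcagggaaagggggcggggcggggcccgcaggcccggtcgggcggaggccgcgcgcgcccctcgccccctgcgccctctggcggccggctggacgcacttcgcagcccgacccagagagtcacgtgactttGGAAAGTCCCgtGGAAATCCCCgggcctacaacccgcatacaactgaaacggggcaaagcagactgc
NFKBIZ, chr3:101827740-101827989, plus strand: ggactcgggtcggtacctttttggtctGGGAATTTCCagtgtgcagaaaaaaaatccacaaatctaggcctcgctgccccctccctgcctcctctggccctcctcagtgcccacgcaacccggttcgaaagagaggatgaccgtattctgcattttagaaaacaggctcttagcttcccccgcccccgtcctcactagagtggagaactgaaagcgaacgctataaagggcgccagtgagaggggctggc
NFKB1, chr4:102501109-102501358, plus strand: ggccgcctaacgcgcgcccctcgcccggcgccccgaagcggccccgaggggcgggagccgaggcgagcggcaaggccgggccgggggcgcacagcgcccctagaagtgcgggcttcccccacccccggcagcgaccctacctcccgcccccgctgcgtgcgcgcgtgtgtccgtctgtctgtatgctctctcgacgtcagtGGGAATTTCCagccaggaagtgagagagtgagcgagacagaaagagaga
REL, chr2:60881324-60881573, plus strand: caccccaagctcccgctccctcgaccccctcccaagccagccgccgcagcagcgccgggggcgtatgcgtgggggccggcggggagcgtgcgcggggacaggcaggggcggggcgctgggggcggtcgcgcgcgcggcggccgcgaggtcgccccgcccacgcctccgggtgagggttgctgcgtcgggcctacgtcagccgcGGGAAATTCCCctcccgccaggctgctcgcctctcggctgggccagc
NFKB2, chr10:102394328-102394577, plus strand: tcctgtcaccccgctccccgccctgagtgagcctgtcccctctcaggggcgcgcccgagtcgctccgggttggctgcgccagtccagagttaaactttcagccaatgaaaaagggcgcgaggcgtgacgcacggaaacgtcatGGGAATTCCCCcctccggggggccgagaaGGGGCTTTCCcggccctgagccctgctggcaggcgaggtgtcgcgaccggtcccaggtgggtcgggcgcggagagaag
The NFKBIA promoter holds GGANNTTCC from 242 and from 81 bases before the start, the second inside a consensus match. The TNFAIP3 promoter holds 2 consensus matches, from 67 and from 55 bases before the start. In the promoters shown, the NFKB1 match begins 49 bases before the start, and the NFKBIZ match 223 bases before it. In REL 2 consensus matches on opposite strands overlap, from 47 and 46 bases before the start, and in NFKB2 a like overlapping pair lies from 107 and 106 bases, with 1 more match from 78.

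**Figure D1:**
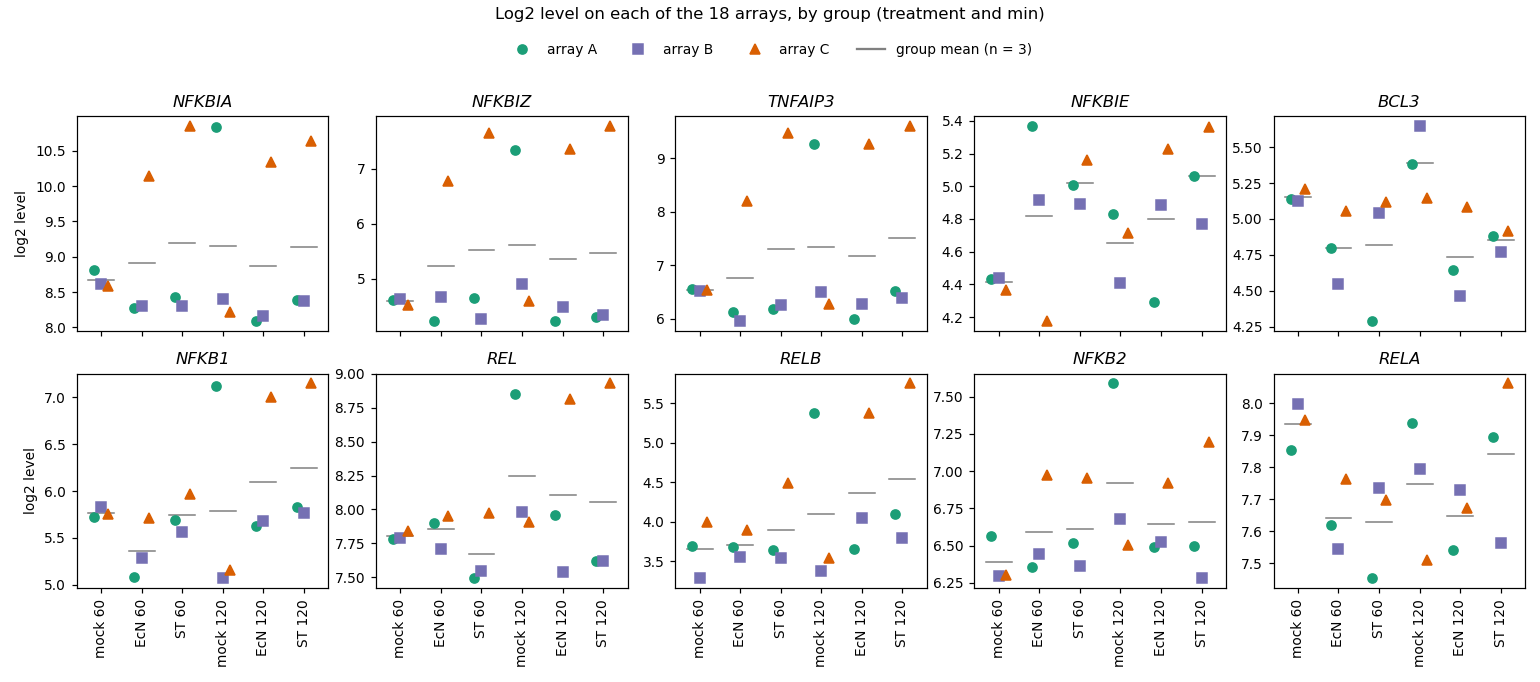
Log2 level of each of the 10 genes (y axis) on all 18 arrays, grouped by treatment and time (x axis), with a marker for each replicate letter and a line at each group's mean. For NFKBIA, NFKBIZ and TNFAIP3 the C arrays of the flagellin groups and the A array of mock at 120 min stand above all others, and for NFKB1, RELB and REL only the 3 such arrays at 120 min do.

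Among the 10 genes, the widest separation was in NFKBIA, TNFAIP3 and NFKBIZ. NFKBIA read 8.82, 8.62 and 8.59 in mock cells at 60 min (arrays A, B and C in this order here and below) and 10.83, 8.39 and 8.22 at 120 min. With EcN flagellin it read 8.28, 8.30 and 10.15 at 60 min and 8.09, 8.17 and 10.34 at 120 min. With ST flagellin it read 8.43, 8.30 and 10.85 at 60 min and 8.39, 8.37 and 10.64 at 120 min. The 4 flagellin C arrays and mock 120 min A thus lay at 10.15 to 10.85 and the 13 others at 8.09 to 8.82, with a median of 8.37. On the A and B arrays at 60 min, flagellin-treated cells read 8.28 to 8.43, below all 3 mock arrays of that time.

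TNFAIP3 followed the same division. It read 6.55, 6.52 and 6.54 in mock cells at 60 min and 9.27, 6.50 and 6.27 at 120 min. With EcN flagellin it read 6.13, 5.95 and 8.20 at 60 min and 5.99, 6.27 and 9.27 at 120 min. With ST flagellin it read 6.19, 6.25 and 9.48 at 60 min and 6.52, 6.38 and 9.60 at 120 min. The 5 arrays ran from 8.20 to 9.60 and the others from 5.95 to 6.55, so the gap between them was 1.65 log2 units. As with NFKBIA, the A and B flagellin arrays at 60 min lay below the mock arrays of that time.

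NFKBIZ, which is needed for a later wave of inflammatory genes, showed it too. It read 4.61, 4.64 and 4.52 in mock cells at 60 min and 7.35, 4.90 and 4.60 at 120 min. With EcN flagellin it read 4.24, 4.67 and 6.77 at 60 min and 4.23, 4.48 and 7.36 at 120 min. With ST flagellin it read 4.66, 4.27 and 7.65 at 60 min and 4.30, 4.34 and 7.78 at 120 min. Its gap of 1.87 log2 units between the lowest of the 5 arrays and the highest of the 13 others was larger than those of NFKBIA (1.33) and TNFAIP3.

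The subunit gene NFKB2 showed the division with a narrow gap. It read 7.59 on mock 120 min A, 6.98 and 6.92 on EcN C at 60 and 120 min, and 6.95 and 7.20 on ST C at 60 and 120 min. The 13 other arrays read 6.28 to 6.68 with a median of 6.49, which left a gap of 0.25. These 4 genes (NFKBIA, NFKBIZ, TNFAIP3 and NFKB2) were among 26 of the 16111 genes, 0.161%, with all 5 arrays above the 13 others, and 2 genes had all 5 below. Because the arrays were picked on these genes, nothing is read from that share.

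NFKB1, RELB and REL were highest on the 3 arrays at 120 min, with the 2 at 60 min well below these. NFKB1, the p105 precursor of p50, read 7.13 on mock 120 min A, 7.00 on EcN 120 min C and 7.15 on ST 120 min C. The 15 other arrays ran from 5.07 to 5.97, with EcN 60 min C at 5.71 and ST 60 min C at 5.97, the latter above the 5.83 that was the highest of the 13. The gap of 1.03 log2 units corresponds to 2.05-fold.

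RELB, the usual partner of p52, read 5.38, 5.37 and 5.75 on mock 120 min A, EcN 120 min C and ST 120 min C. Its 15 other arrays ran from 3.28 to 4.49, and the highest of them was ST 60 min C, against at most 4.09 on the 13. REL read 8.85, 8.81 and 8.93 on the same 3 arrays and 7.49 to 7.98 on the 15 others, where EcN C and ST C at 60 min read 7.95 and 7.98. The 3 genes were among 65 of 16111, 0.403%, in which the 3 arrays at 120 min lay above the 15 others. No gene of the first pattern among the members showed the second, and 8 genes of all tested showed both.

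RELA, NFKBIE and BCL3 showed neither division. RELA, the main activating subunit, varied least, from 7.45 to 8.06 over the 18 arrays. The 5 arrays ran from 7.67 to 8.06, and only 1 of them, ST 120 min C, was above all 13 others, whose median was 7.73. NFKBIE ran from 4.17 to 5.37, with the lowest value on EcN 60 min C, one of the 5 arrays, and the highest on EcN 60 min A, which is not.

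BCL3 was ordered by treatment and not by the 5 arrays. In mock cells it read 5.14, 5.12 and 5.21 at 60 min and 5.38, 5.65 and 5.15 at 120 min. With EcN flagellin it read 4.80, 4.55 and 5.05 at 60 min and 4.64, 4.47 and 5.09 at 120 min. With ST flagellin it read 4.29, 5.04 and 5.12 at 60 min and 4.88, 4.77 and 4.92 at 120 min. All 6 mock arrays lay above all 12 flagellin arrays, but the groups nearly touched. The lowest mock array, 60 min B, read 5.122 and the highest flagellin array, ST 60 min C, read 5.121. In each flagellin group the highest was C. How many of all genes divide mock from flagellin arrays in this way was not counted. The division is therefore not read as particular to BCL3.

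Group means hide these divisions. NFKBIA means rose in the order 8.67 ± 0.12 (SD, n = 3) for mock 60 min, 8.87 ± 1.28 for EcN 120 min, 8.91 ± 1.07 for EcN 60 min, 9.13 ± 1.31 for ST 120 min, 9.15 ± 1.46 for mock 120 min and 9.19 ± 1.43 for ST 60 min. No neighbours in that order differed by more than the larger of their SDs. BCL3 means ran from 4.73 ± 0.32 (EcN 120 min) through 4.80 ± 0.25 (EcN 60 min), 4.82 ± 0.46 (ST 60 min), 4.86 ± 0.08 (ST 120 min) and 5.16 ± 0.05 (mock 60 min) to 5.39 ± 0.25 (mock 120 min). Among BCL3 neighbours, only ST 120 min and mock 60 min differed by more than both SDs.

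**Figure D2:**
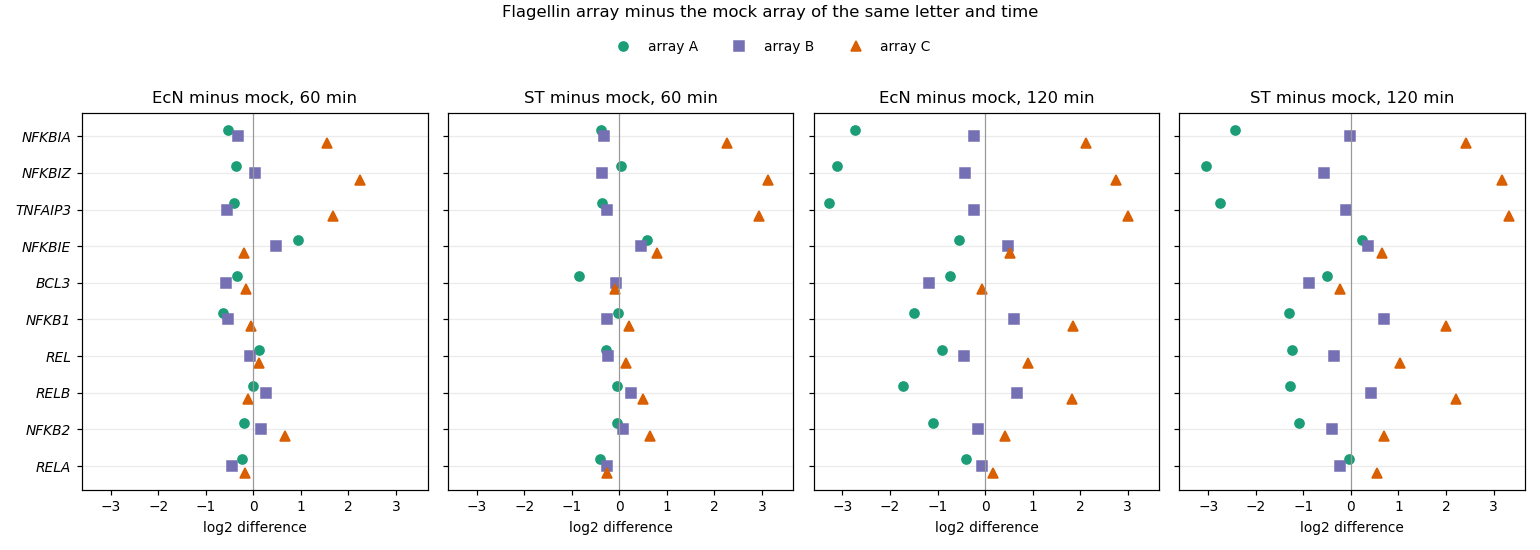
Log2 difference of each flagellin array from the mock array of the same letter and time (x axis) for the 10 genes (y axis), in 4 panels for EcN and ST at 60 and 120 min, with a marker for each letter. The C differences of NFKBIA, NFKBIZ and TNFAIP3 lie at 1.56 or above in all 4 panels, and the A differences at 120 min lie at -2.44 or below.

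Set against the mock array of the same letter, the flagellin C arrays had large differences in both flagellins. These are single differences without an error of their own, and the letters did not pair the arrays over all genes. At 60 min on C, NFKBIA was 2.94-fold above mock with EcN and 4.78-fold with ST flagellin, NFKBIZ 4.75-fold and 8.73-fold, and TNFAIP3 3.18-fold and 7.68-fold. At 120 min on C, NFKBIA was 4.37-fold and 5.37-fold above mock, NFKBIZ 6.77-fold and 9.06-fold, and TNFAIP3 8.03-fold and 10.1-fold. The same genes on letter A at 120 min were below their mock array, by log2 differences of -2.74 and -2.44 for NFKBIA, -3.12 and -3.05 for NFKBIZ and -3.28 and -2.75 for TNFAIP3. Those differences were taken from the high array labelled mock 120 min A. On letter B at 120 min the differences of these 3 genes lay between -0.56 and -0.03.

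NFKB1, RELB and REL differed more from mock on C at 120 min than at 60 min. NFKB1 was 0.97-fold and 1.16-fold of mock with EcN and ST flagellin at 60 min and 3.58-fold and 3.97-fold at 120 min. RELB was 0.93-fold and 1.40-fold at 60 min and 3.56-fold and 4.63-fold at 120 min. REL was 1.08-fold and 1.10-fold at 60 min and 1.88-fold and 2.04-fold at 120 min. On letter B NFKB1 was 0.69-fold and 0.83-fold at 60 min and 1.53-fold and 1.62-fold at 120 min. RELB on B was 1.21-fold and 1.19-fold, then 1.60-fold and 1.33-fold, while REL was 0.95-fold and 0.84-fold, then 0.73-fold and 0.78-fold. On letter A at 120 min, against the high mock array, NFKB1 was 0.35-fold and 0.41-fold, RELB 0.30-fold and 0.41-fold and REL 0.54-fold and 0.42-fold.

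ST flagellin read above EcN flagellin on the C arrays for most of the 10 genes. At 60 min 8 of the 10 were higher with ST, led by TNFAIP3 (log2 difference 1.27), NFKBIE (0.98), NFKBIZ (0.88), NFKBIA (0.70) and RELB (0.59). At 120 min 9 of 10 were higher, and the largest difference was 0.42, for NFKBIZ. On letter B 5 of 10 were higher at each time, and on letter A 5 of 10 at 60 min and 9 of 10 at 120 min. The 10 genes are not replicates, and the share of all genes higher with ST on each letter was not counted. In the fit of ST over EcN below, 0 of the 10 and 0.0% of all genes passed at either time. BCL3 lay below its same-letter mock array in all 12 differences and NFKBIE above in 10 of 12, where the EcN and ST differences share mock arrays. How many of all genes have such signs was not counted, so nothing particular to BCL3 or NFKBIE is read from this.

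**Figure D3:**
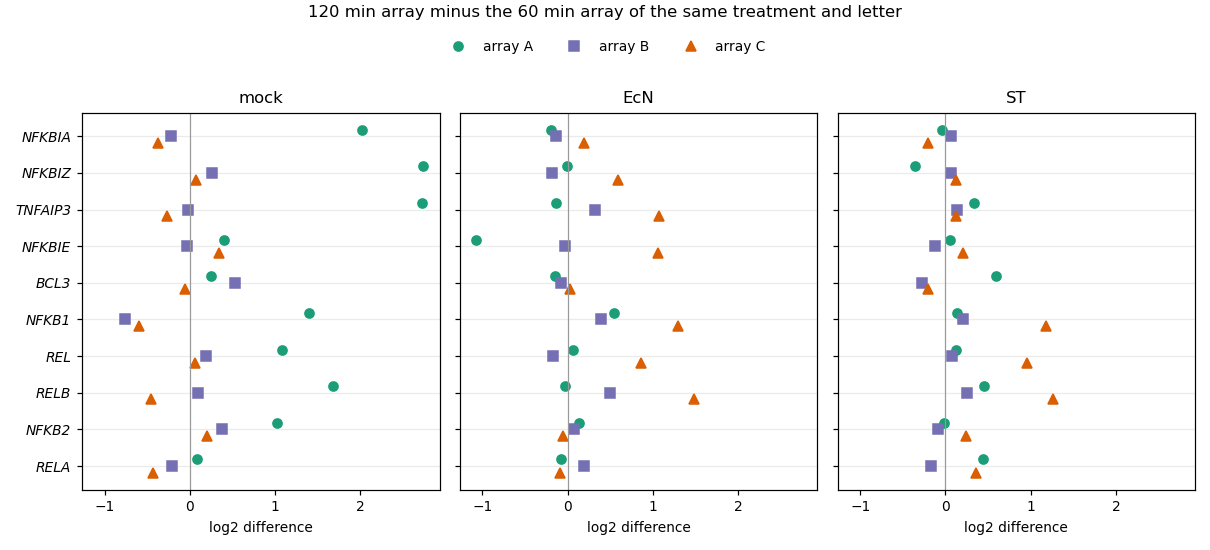
Log2 difference between 120 and 60 min within a letter (x axis) for the 10 genes (y axis), in panels for mock, EcN and ST, with a marker for each letter. In mock the A points, and in EcN and ST the C points, of NFKB1, RELB and REL lie at 0.86 or above.

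Between 60 and 120 min RELB and NFKB1 differed most on the C arrays. With EcN flagellin on C, RELB was higher by 1.48 log2 units, NFKB1 by 1.29, TNFAIP3 by 1.07, NFKBIE by 1.05 and REL by 0.86, against 0.20 for NFKBIA and -0.05 for NFKB2. With ST flagellin on C, RELB was higher by 1.26, NFKB1 by 1.18 and REL by 0.95, against 0.13 for NFKBIZ, 0.13 for TNFAIP3 and -0.21 for NFKBIA. In mock cells on A, where 60 min was a low array and 120 min a high one, NFKBIZ was higher by 2.74, TNFAIP3 by 2.72, NFKBIA by 2.01, RELB by 1.68, NFKB1 by 1.40, REL by 1.07 and NFKB2 by 1.02. On the other mock letters NFKB1 was lower at 120 min, by -0.76 on B and -0.60 on C.

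The fit over all 18 arrays asked which of these differences exceed the spread within groups. It used limma with 6 group means and Benjamini-Hochberg adjustment over all 16111 genes, and a gene passed at an adjusted p under 0.05. In EcN over mock at 60 min 0 of the 10 genes passed, beside 6.45% of all genes, and 1 of the 10 had an unadjusted p under 0.05. In ST over mock at 60 min 0 of 10 passed beside 5.26%, with 2 of 10 under an unadjusted 0.05. At 120 min 0 of 10 passed for EcN, beside 0.0621%, and 0 of 10 for ST, beside 0.559%. In each, 1 of 10 was under an unadjusted 0.05. Of all 16111 genes, limma put 2044 rising and 1958 falling ones under that cut for EcN at 60 min. For ST at 60 min these were 1644 and 1975. At 120 min they were 1327 and 1334 for EcN, and 1448 and 1380 for ST. No excess among the 10 members is therefore read from these counts.

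Standard errors of these 2-group comparisons were large for the genes that separated the arrays. They were 1.10 log2 units for NFKBIZ and TNFAIP3, 0.85 for NFKBIA, 0.55 for RELB, 0.48 for NFKB1, 0.34 for REL and 0.27 for NFKB2, against a median of 0.14 over all genes. Only RELA, at 0.13, was below that median, and 99.9% of genes had a smaller standard error than NFKBIA. NFKBIA was 0.23 higher with EcN and 0.52 higher with ST flagellin at 60 min, with 95% confidence intervals of -1.57 to 2.03 and -1.28 to 2.32. The single differences on C, 1.56 and 2.26, lie within these intervals, so a change of that size was not resolved at this spread.

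The 2 members closest to the threshold at 60 min were not those with the large array differences. NFKBIE was 0.61 ± 0.26 (SE) higher in ST over mock at 60 min (limma adjusted p = 0.170) and RELA fell short of the threshold at -0.30 ± 0.13 (adjusted p = 0.189). At 120 min BCL3 read -0.66 ± 0.20 in EcN over mock (limma adjusted p = 0.130) and -0.54 ± 0.20 in ST over mock (adjusted p = 0.192). The median difference of the 10 genes was 0.13, 0.23, -0.15 and 0.04 for EcN and ST at 60 min and EcN and ST at 120 min, beside medians over all genes within 0.01 of 0.00.

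**Figure D4:**
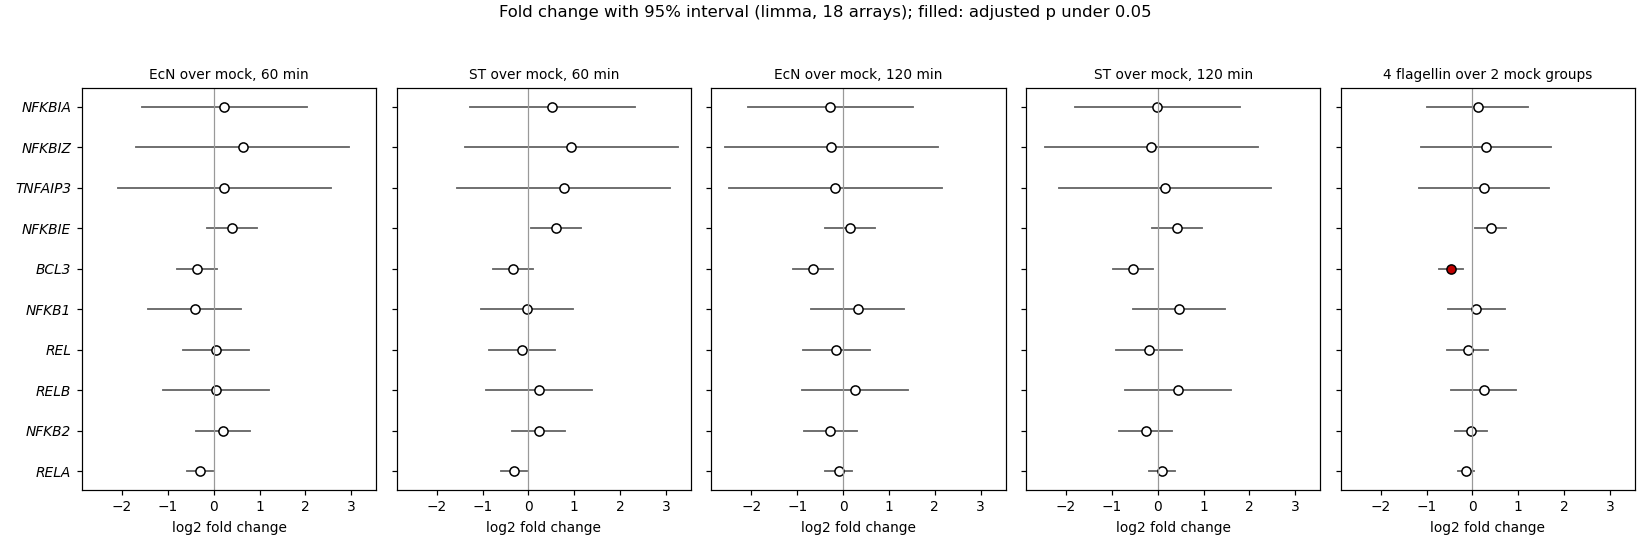
Fitted log2 fold change with its 95% confidence interval (x axis) for the 10 genes (y axis) in 5 comparisons: EcN and ST over mock at 60 and at 120 min, and all flagellin over all mock. Filled points passed an adjusted p of 0.05, and the only one is BCL3 in the last comparison, at -0.47.

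Over both times and flagellins, the mean of the 4 flagellin groups against the mean of the 2 mock groups, 14.4% of all genes passed and 1 of the 10 members did. BCL3 fell by 0.47 ± 0.13 (SE) on the log2 scale (limma adjusted p = 0.0199). Among the markers CDX2 (-0.41, limma adjusted p = 0.0380), LGR5 (-0.30, adjusted p = 0.0430) and PAX2 (-0.33, adjusted p = 0.0197) fell and KRT18 (0.35, adjusted p = 0.00751) and LIN28B (0.24, adjusted p = 0.0208) rose in the same comparison, and their part in the result was not tested. The call was lost without mock 60 min C (-0.46, limma adjusted p = 0.0504) and without mock 120 min B (-0.41, adjusted p = 0.0703), where 9.47% and 8.09% of all genes passed. NFKBIE, at 0.39 ± 0.16, did not pass (limma adjusted p = 0.104), but did without EcN 60 min C (0.48, adjusted p = 0.0285) or without EcN 120 min A (0.46, adjusted p = 0.0492), where 11.8% and 12.5% of all genes passed.

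No gene passed in the other comparisons, which held 0 of the 10 members beside 0.0% of all genes. For ST over EcN, limma gave, at an unadjusted p under 0.05, 670 higher and 811 lower genes at 60 min, and 854 and 1028 at 120 min. For 120 over 60 min it gave 962 higher and 988 lower in mock, 610 and 671 in EcN, and 330 and 443 in ST cells. For the change of the flagellin effect between the times it gave 958 and 978 for EcN and 879 and 852 for ST. None of the 10 members had an unadjusted p under 0.05 in these 7 comparisons. In mock cells at 120 over 60 min, NFKBIZ was 1.02 and TNFAIP3 0.81 higher, each with a standard error of 1.10, which rests on the array labelled mock 120 min A.

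Without the 5 arrays, a fit chosen with these values in view, some of the inhibitors and NFKB1 crossed the threshold. Every group except mock at 60 min lost an array, and mock at 120 min rested on B and C alone. In EcN over mock at 60 min NFKB1 (-0.59, limma adjusted p = 0.0158) and TNFAIP3 (-0.49, adjusted p = 0.0403) were lower and NFKBIE (0.73, adjusted p = 0.0454) was higher, 3 of 10 members beside 6.16% of all genes. With all arrays TNFAIP3 was 0.23 higher there. The direction turned with the removal of EcN 60 min C, which read 8.20 against 6.13 and 5.95 on A and B. The standard error of TNFAIP3 there fell from 1.10 to 0.12. NFKB1 alone passed in mock at 120 over 60 min (-0.66, limma adjusted p = 0.00982), beside 5.02% of all genes, and in ST over mock at 120 min (0.68, adjusted p = 0.0412), beside 0.788%. It alone also passed in the change between the times of the EcN effect (1.12, limma adjusted p = 0.0128), beside 1.32%. For the ST effect it alone passed too (0.82, limma adjusted p = 0.0454), beside 0.658%. Apart from EcN over mock at 60 min, these NFKB1 comparisons all used mock 120 min B and C (5.07 and 5.16). They are therefore not separate results. BCL3 over all flagellin groups was lower at -0.60 (limma adjusted p = 0.0410), beside 2.71% of all genes, and without all 6 arrays lettered C at -0.64 (adjusted p = 0.0163), beside 12.2%. These arrays were left out for their high levels of these genes, so these p-values depend on that choice. No change is read from them.

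Genes around the 10 were counted in 4 lists, whose counts over all flagellin stand beside the 14.4% of all genes that passed there, 1101 higher and 1211 lower. Of 14 other inhibitors of the pathway 13 were tested, and in all flagellin over all mock 3 rose and 0 fell. They were TNIP2, a partner of A20 (0.34, limma adjusted p = 0.0248), OTUD7B, a deubiquitinase (0.24, adjusted p = 0.0337), and N4BP1 (0.17, adjusted p = 0.0471). ZC3H12A, a nuclease that degrades inflammatory transcripts, did not pass (-0.07, limma adjusted p = 0.924). It separated the arrays instead, with 6.49 to 7.75 on the 5 and 5.53 to 6.17 on the others. The list's median difference was 0.01, beside 0.00 for all genes.

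Of 16 genes for the IKK kinase and linear ubiquitin machinery, 14 were tested, and 2 fell over all flagellin, a share near that of all genes. IKBKG (NEMO, the regulatory subunit of IKK) fell by 0.35 (limma adjusted p = 0.0119) and by 0.59 in EcN over mock at 60 min (adjusted p = 0.0250), and TAB3 fell by 0.21 overall (adjusted p = 0.0487). Of 13 genes from TLR5 to MyD88, 10 were tested, and 2 rose and 2 fell overall. PELI1, a ubiquitin ligase, rose by 0.33 (limma adjusted p = 0.0108) and TOLLIP, an inhibitor of IRAK signalling, by 0.26 (adjusted p = 0.0291). The adaptors MYD88 (-0.36, limma adjusted p = 0.00741) and TIRAP (-0.37, adjusted p = 0.0197) fell. In EcN over mock at 60 min PELI1 rose by 0.49 (limma adjusted p = 0.0344) and TIRAP fell by 0.67 (adjusted p = 0.0289). None of these IKK genes divided the 5 arrays from the 13, and of the TLR5 list IRAK2 alone had the 3 arrays at 120 min above the 15. The median differences overall were -0.05 and -0.06.

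Of 26 listed NF-kB target genes outside the 10, 20 were tested and 1 passed in any comparison. All 5 arrays lay above the 13 others in 10 of the 20, beside 26 of all 16111 genes, 0.161%. The arrays were picked on NF-kB genes, so nothing is read from that count. CCL5, a chemokine, rose in EcN over mock at 60 min (0.82, limma adjusted p = 0.0218), in ST over mock at 60 min (0.64, adjusted p = 0.0469) and overall (0.44, adjusted p = 0.0148). It read 3.30 to 3.71 on the 5 arrays and 2.63 to 4.07 on the others. The 10 with all 5 arrays above the 13 were the chemokine genes CXCL8, CXCL1, CXCL2, CXCL10 and CCL20, and TNF, IER3, GADD45B, IRF1 and CD83. CXCL8 read 5.62 and 7.47 on EcN C at 60 and 120 min, 7.92 and 8.76 on ST C, and 7.53 on mock 120 min A, against 2.16 to 2.90 on the 13 others. Its fitted difference over all flagellin was 0.98 ± 1.13 (limma adjusted p = 0.611). The median over the 20 was 0.19 overall.

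CCL20 joined both patterns. It read 2.35 and 3.53 on EcN C and ST C at 60 min, 4.95 and 5.29 on the same at 120 min and 4.97 on mock 120 min A, against 1.43 to 1.94 on the others. CXCL10 read 3.36 and 4.86 at 60 min, 4.98 and 6.92 at 120 min and 6.65 on mock 120 min A, against 2.35 to 3.25. CXCL2 read 5.42 and 6.46 at 60 min and 4.98 and 6.29 at 120 min, with 5.39 on mock 120 min A, against 2.55 to 4.40. The 2 chemokine genes CCL20 and CXCL10 were thus higher on C at 120 than at 60 min for each flagellin, while CXCL2 was lower.

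**Figure D5:**
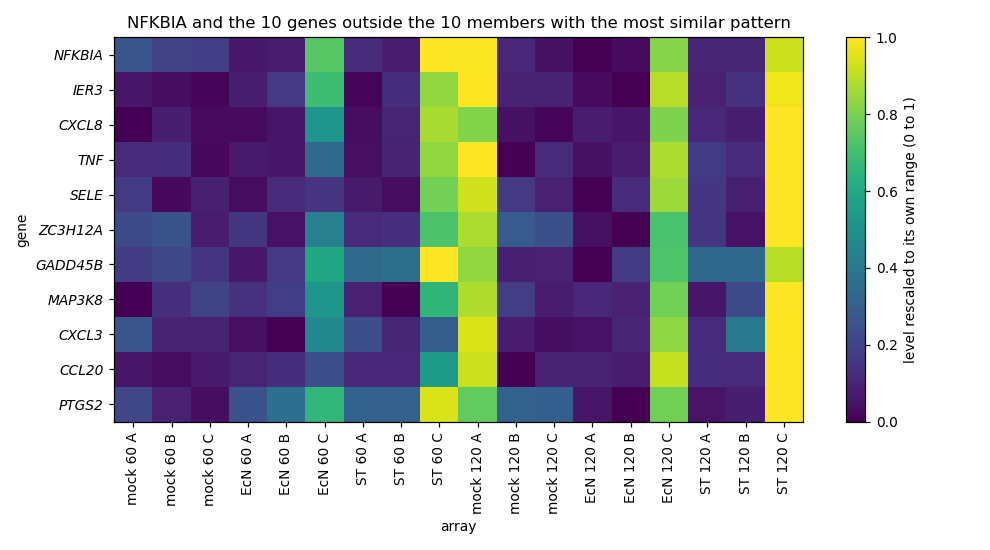
Level of NFKBIA and the 10 genes outside the list with the most similar pattern, each rescaled from its lowest array (0) to its highest (1), over the 18 arrays (x axis). High values stand in the flagellin C arrays and mock 120 min A in most genes, and EcN 60 min C is the lowest of these 5 except in CXCL3.

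Likeness to NFKBIA was measured as the mean absolute difference between patterns rescaled from 0 to 1 over the 18 arrays, among 4055 genes whose levels spanned at least 1 log2 unit. TNFAIP3 (0.053) and NFKBIZ (0.065) were the most alike of all, ranking 1 and 2. The nearest genes that are not members were IER3 (0.074), an early response gene, CXCL8 (0.086), TNF (0.087), the adhesion molecule SELE (0.099), ZC3H12A (0.102), GADD45B (0.102), the kinase gene MAP3K8 (0.104), CXCL3 (0.114), CCL20 (0.120) and PTGS2 (0.127). Of the other members NFKB2 ranked 19, RELB 23, REL 24 and NFKB1 34, while BCL3 ranked 685 and NFKBIE 851. RELA spanned less than 1 log2 unit and had no rank. The arrays share library preparation and normalization, so this is a description with no test.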

How the data were processed

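The submitters measured total RNA on 18 arrays. The deposited values are log2 intensities after RMA with oligo 1.30.0, per the submitters' processing notes; RMA corrects background, equalizes the arrays' distributions and summarises probes, which can shrink large differences. No genome build for the array was given in the sources used here.

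Of 53617 transcript clusters, 23871 had 1 symbol in the platform annotation, 1842 several and 27904 none listed; 655 symbols were updated through the RefSeq gene table. Each gene kept its transcript cluster with the highest mean, if above its array's median on at least 3 of 18 arrays. This left 16111 genes. A model of 6 group means was fitted with limma 3.58.1 in R 4.3.3 (12 residual and 4.20 prior degrees of freedom) for 12 comparisons, after it was tested on simulated data. Benjamini-Hochberg adjustment covered all genes. Having 3 arrays per group limits the precision.

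All 10 members were named, with genes of the lists that passed or that separated the arrays, and the 10 genes most like NFKBIA by the stated measure. The members, lists and alternatives that drop arrays were chosen with earlier results of these data known. Alternatives covered centring, quantile normalization, filters, averaging over transcript clusters, variance settings, array weights, the replicate letter as a block, only the groups compared, and leaving out arrays. Promoters came from the RefSeq table; protein sequences were not analysed here.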

Additional observations from a re-analysis of the deposited data

How the results depend on the processing

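There were 29 alternatives, and with 0 members passing in 11 comparisons and 1 in the other, equal counts say little about stability. Without the 5 arrays that stood apart it was 3 in EcN over mock at 60 min (NFKB1, NFKBIE and TNFAIP3, the last turned to -0.49, limma adjusted p = 0.0403), where 993 of 16111 genes passed. In the same setting it was 1, each time NFKB1, in ST over mock at 120 min (0.68), in mock at 120 over 60 min (turned to -0.66), in the change of the EcN effect between the times (1.12, limma adjusted p = 0.0128) and in that of the ST effect (0.82, adjusted p = 0.0454), where 127, 809, 213 and 106 genes passed. The arrays that stood apart were left out for high levels of these genes, so these passes depend on that choice. No change is read from them. With only the groups compared, the count was 1 in ST over mock at 60 min (NFKBIE, 0.61, limma adjusted p = 0.0318), beside 3.71% of all genes. Leaving out each array in turn gave 0 to 1 in EcN over mock at 120 min (BCL3, -0.78, limma adjusted p = 0.0482 without mock 120 min C, where 7.31% of all genes passed against 0.0621% with it) and 0 to 2 over all flagellin. The BCL3 difference over all flagellin kept its direction in all alternatives run for it, with limma adjusted p-values of 0.0106 to 0.0436 apart from the 2 arrays whose omission lost the call. With the replicate block it was -0.47 (limma adjusted p = 0.0227), 1 member passed, and the block changed no call of a member; 10 of 45 same-letter pairs correlated over 0.1 (range -0.24 to 0.27) and 7 of 18 arrays were closest to their own letter, so the letters were not taken to pair the arrays. Of 120 member values, 79 changed sign without a call under some alternative. The comparison over all flagellin uses all 6 groups, so no fit restricted to the groups compared was run for it.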

Other observations

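Beside the members, the listed targets and the inhibitor ZC3H12A, 11 genes had the 4 flagellin C arrays and mock 120 min A above the 13 other arrays; they were chosen after their values were seen. They include the early response genes ATF3 (lowest of the 5 at 6.78, highest of the others at 6.40), JUNB (9.35 and 8.37), DUSP1 (9.98 and 9.75), PPP1R15A (8.51 and 7.98) and TRIB1 (7.99 and 7.83), and PTGS2, the inducible cyclooxygenase (6.47 and 5.91). MAP3K8, a kinase held by the NFKB1 precursor p105, had 5.37 and 4.59. Among the 65 genes with only the 3 arrays at 120 min required to be high, 55 were in none of the lists.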
